A study of Mus musculus with 8 samples.

Results

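The semaphorins, the plexins and the neuropilins are the genes described here: every gene whose symbol begins with Sema3, Sema4, Sema5, Sema6, Sema7 or Plxn, together with Nrp1 and Nrp2. The rule found 31 genes among the 19938 genes with a named probe set, namely 20 semaphorins, 9 plexins and 2 neuropilins, and all 31 were measured. The rule picks genes by symbol and not by measured value, although it was set with earlier results of these data known. Where a gene had several probe sets, the brightest stood for it. Of 8 Affymetrix mogene 1.0 ST arrays, 4 held RNA of myeloid dendritic cells that flow cytometry had sorted from femur and tibia marrow, and 4 held RNA of classical dendritic cells sorted from the spleen. Each of 4 mice gave 1 array of each tissue, as the animal codes in the sample descriptions pair them. All mice were 8 weeks old and carried the CX3CR1-gfp/+ genotype, in which 1 allele of the fractalkine receptor gene holds a green fluorescent protein gene, so both groups share that altered locus. The sources used here do not give the surface markers of either sort. RNA came from very small inputs amplified before labelling.

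Semaphorins are secreted or membrane-bound guidance proteins, first known from growing axons, that share an extracellular sema domain. Plexins are their main receptors, and the cytoplasmic part of a plexin acts on small GTPases that control adhesion and the actin skeleton. Neuropilins have a short cytoplasmic tail and serve as co-receptors, with A plexins for the secreted class 3 semaphorins and with the receptors of vascular endothelial growth factors. In dendritic cells these proteins are known for migration into lymphatic vessels and for contacts with T cells.

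The receptors of the family were mostly higher in bone marrow, whereas most semaphorins did not pass the test. At a threshold of 0.05 on limma's adjusted p, 13 of the 31 genes were called (41.9%), with 10 higher in bone marrow and 3 lower. Over all genes 18.5% were called, 9.26% higher and 9.20% lower. Both neuropilins and 5 of 9 plexins were higher in bone marrow and 1 plexin was lower. Of 20 semaphorins, 3 were higher and 2 lower. However, 10 of the semaphorins lay among the dimmest 40% of all genes, against 1 plexin and no neuropilin. Of these 10 dim semaphorins 1 was called, and of all genes that dim 4.58% were called. Among brighter genes, 4 of 10 semaphorins, 6 of 8 plexins and both neuropilins were called, against 27.7% of all brighter genes. The part of brightness in the contrast between receptors and semaphorins was not tested. Changes of at least 2-fold were found in 6 members, Nrp2, Plxna1, Nrp1 and Sema4a higher and Sema7a and Plxnc1 lower, and 3.52% of all genes passed with such a change. The median log2 fold change of the 31 was 0.06, against -0.01 over all genes. The 4 bone marrow values and the 4 spleen values did not overlap for 13 members, 10 higher and 3 lower in bone marrow, and for 20.6% of all genes (10.4% higher, 10.2% lower).

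**Figure D1:**
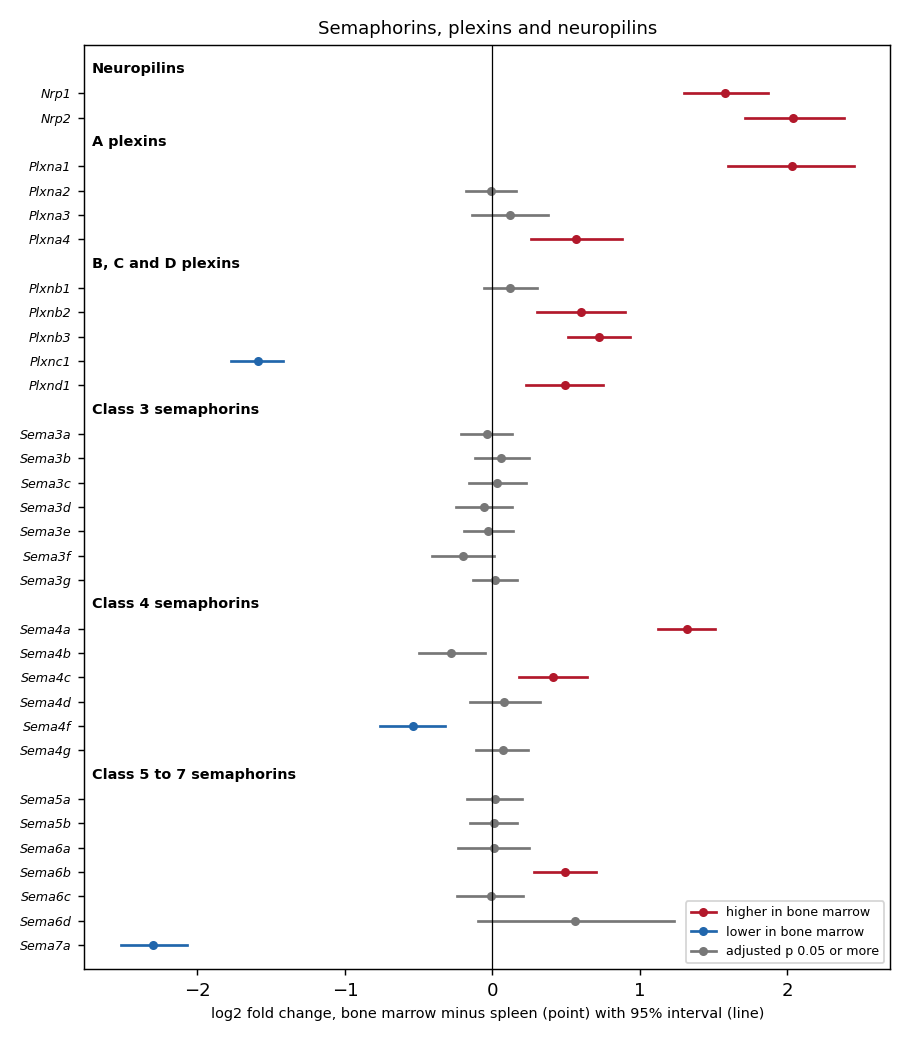
Log2 fold change of each of the 31 genes, bone marrow minus spleen (x axis; point, with the 95% interval from limma as a line), grouped by protein class down the y axis. Nrp1, Nrp2 and Plxna1 lie farthest to the right and Sema7a and Plxnc1 farthest to the left, while the 7 class 3 semaphorins lie close to 0.

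Intensities are linear array values as the authors deposited them, and levels are geometric means of 4 arrays. Different probe sets respond differently, so a level is compared between tissues and not between genes. Array medians lay between 125 and 135. No detection call came with the values, and 11 of the 31 genes lay among the dimmest 40% of all genes, whose mean over the 8 arrays was at most 105. Of 8 dendritic markers, 5 were lower in bone marrow and 3 (H2-Ab1, Clec9a and Sirpa) did not pass. Xcr1 (141 in bone marrow, 1580.1 in spleen), Esam (84.9 and 434), Zbtb46 (214 and 520.0) and Flt3 (1967 and 4078) were at least 2-fold lower. The list's summed intensity, 29878 to 32444 in bone marrow and 34539 to 37096 in spleen, was mostly that of H2-Ab1, Itgax and Sirpa. Markers of other cells differed between the tissues as well. Neutrophil markers were higher in bone marrow in 12 of 12 (sum 21303 to 29309, against 1552 to 1823 in spleen), monocyte markers in 7 of 7 (22916 to 25675, against 8550.5 to 10080.1) and macrophage markers in 8 of 10 (21734 to 31238, against 3614 to 4285). Erythroid markers were higher in 3 of 4 measured (678 to 1083, against 269.7 to 413). Of 7 plasmacytoid markers, 1 was higher and 3 were lower (3567 to 4686, against 3052 to 3589). The higher one was Bst2 (2536 in bone marrow, 1478 in spleen), the largest part of that sum, whereas Siglech, Ccr9 and Spib were lower. No marker was listed at 0, but intensities include background, so that does not show that each marker was expressed. The part of these cells in the results below was not tested, and in such bulk RNA fewer cells of a type and less RNA per cell cannot be told apart.

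Neuropilins. Both neuropilins were higher in bone marrow. Nrp1, the co-receptor of class 3 semaphorins and of Vegfa that is also known from contacts between dendritic cells and T cells, stood at 1176, 1420.2, 1183 and 1353 in bone marrow replicates 1 to 4, against 445, 321, 441 and 526 in spleen replicates 1 to 4. Every bone marrow value lay above every spleen value, a 3.00-fold difference (log2 fold change 1.58 ± 0.13, SE, with 4 arrays a group; adjusted p = 1.9e-06 in limma). Nrp2, the co-receptor of Sema3f and of Vegfc, stood at 414, 688, 408 and 521 in bone marrow, against 108, 113, 146 and 118 in spleen. It was 4.12-fold higher in bone marrow, again with no overlap (2.04 ± 0.15, limma adjusted p = 8.4e-07). Within mice the log2 difference ran from 1.36 to 2.15 for Nrp1 and from 1.49 to 2.61 for Nrp2, and mouse 2 had the largest difference in both genes. Bone marrow replicate 2 also had the highest macrophage marker sum, 31238, whereas replicate 4, the next highest in both genes, had the lowest, 21734. The part of macrophages in these differences was not tested.

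Since Nrp1 and Nrp2 were higher together, the windows around their starts are shown, from 250 bases before to 50 after the start, as RefSeq gives them in GRCm38.p6. The Nrp1 window lies at chr8:128358823-128359122 and the Nrp2 window at chr1:62703067-62703366, both on the plus strand. Capitals mark matches, on either strand, to any of 8 motifs: the PU.1 core GAGGAA, RBPJ TGGGAA, AP-1 TGANTCA, the IRF motif (GAAA repeated after any 2 bases), the E-box CACGTG, the GC box GGGCGG, the TATA box TATAAA and NF-kB.
Nrp1: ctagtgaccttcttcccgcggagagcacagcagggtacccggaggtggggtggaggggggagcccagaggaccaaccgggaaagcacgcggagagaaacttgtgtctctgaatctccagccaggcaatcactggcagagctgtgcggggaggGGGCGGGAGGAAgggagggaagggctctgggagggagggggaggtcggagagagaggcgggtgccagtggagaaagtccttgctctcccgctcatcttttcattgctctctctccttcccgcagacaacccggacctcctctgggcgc
Nrp2: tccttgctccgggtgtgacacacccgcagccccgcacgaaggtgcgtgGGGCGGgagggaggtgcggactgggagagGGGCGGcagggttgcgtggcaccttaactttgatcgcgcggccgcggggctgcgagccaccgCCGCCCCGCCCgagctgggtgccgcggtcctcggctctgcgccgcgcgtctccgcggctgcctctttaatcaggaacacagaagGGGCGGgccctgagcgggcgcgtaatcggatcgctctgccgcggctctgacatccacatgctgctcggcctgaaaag
The Nrp1 window held 1 GC box, at position -98, followed directly by 1 PU.1 core at -92, and the Nrp2 window held 5 GC boxes, a pair of which overlapped by 1 base. Positions are counted from the gene's start. GC boxes were found in 35.7% of all 32851 windows and in 46.2% of those of protein-coding genes, and the PU.1 core in 28.3% of all. Of the 31 genes, 26 had at least 1 window, and Plxna1, Plxna4, Sema3b, Sema3f and Sema6a had none in the table. Of the family's 37 windows, 27 held a GC box (73%), 12 the PU.1 core (32.4%), 8 the RBPJ motif (21.6%, against 25.6% of all windows) and 0 the TATA motif (13.6% of all). A match is a run of letters and not a measured binding site.

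A plexins. Plxna1, the A plexin known in dendritic cells for contacts with T cells and for a receptor complex with Trem2 and Tyrobp, stood at 984, 1225, 1037 and 536 in bone marrow, against 235, 205, 230.2 and 219.9 in spleen. It was 4.07-fold higher in bone marrow (log2 fold change 2.03 ± 0.20, SE, with 4 arrays a group; adjusted p = 7.3e-06 in limma). The spleen arrays lay close together and bone marrow replicate 4 was far below the other three, yet above every spleen array. Without that array the log2 fold change was 2.28. From high to low the bone marrow replicates ran 2, 3, 1 and 4, as did the macrophage marker sum (31238, 27551, 23224 and 21734). That order held for 3 of the 31 genes, Plxna1, Plxnb3 and Sema6d, 2 of them called. The share of all genes with that order was not computed, so no link to macrophages is read from the count. Plxna4, a receptor for Sema3a with Nrp1 and for Sema6a and Sema6b, stood at 148, 169, 218 and 152 in bone marrow, against 109.9, 119, 92.3 and 139.9 in spleen. The groups did not overlap, although the nearest arrays lay at 148 and 139.9 (1.49-fold higher, 0.57 ± 0.14, limma adjusted p = 0.012). Plxna2 and Plxna3 did not pass, with log2 fold changes of -0.01 (95% interval -0.18 to 0.16) and 0.12 (-0.14 to 0.38); bone marrow replicate 3 stood at 168 for Plxna3 and its other bone marrow arrays at 131 to 136.

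**Figure D2:**
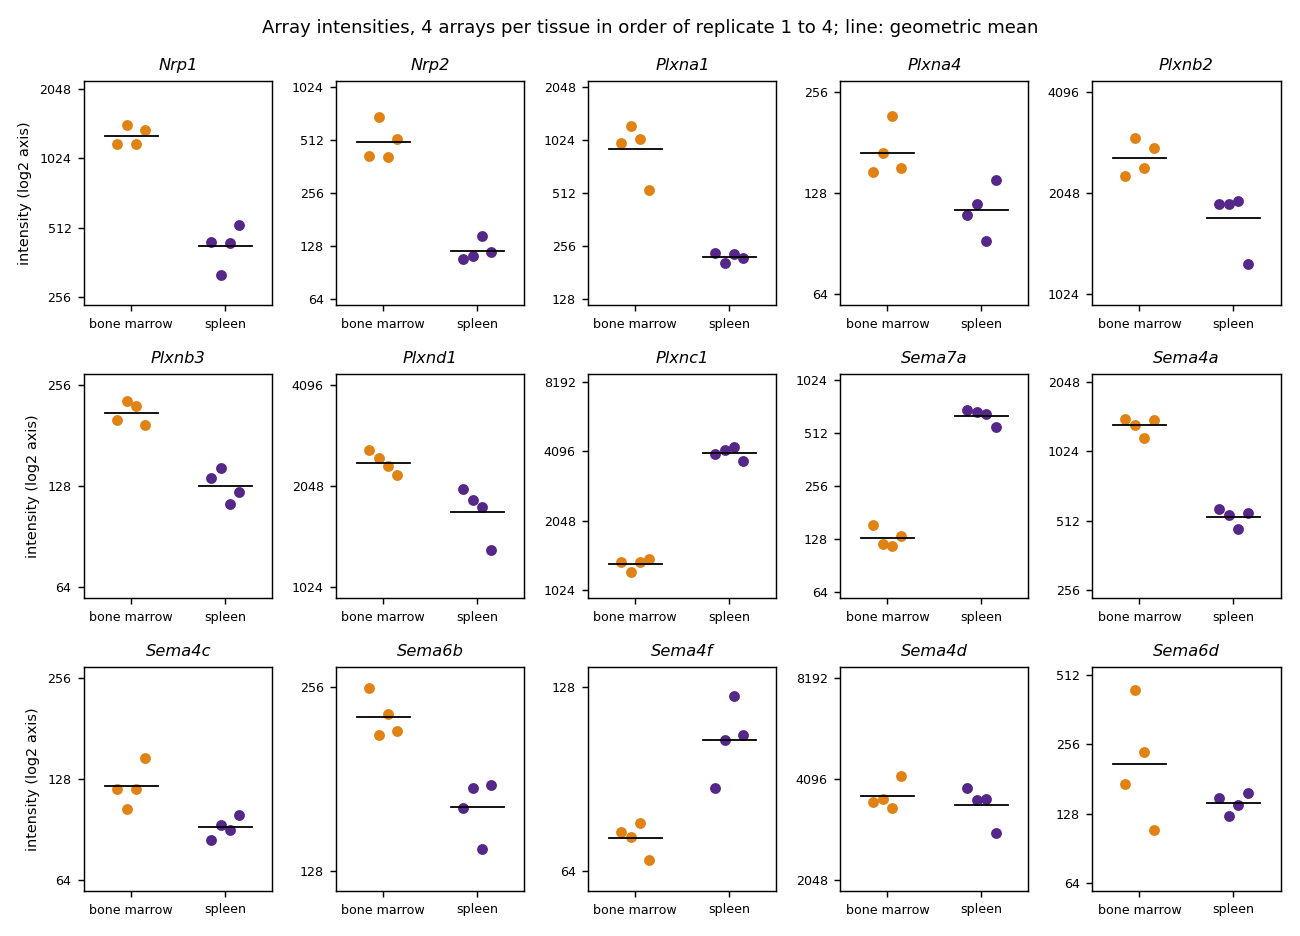
Intensity on each array (y axis, log2 scale, a separate range for each gene) for the 13 called members and for Sema4d and Sema6d, bone marrow left of spleen, with the geometric mean as a line. The 2 tissues are separate in the 13 called genes, overlap in Sema4d and Sema6d, and the bone marrow values of Sema6d spread from 109 to 438.

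B and D plexins. Plxnb2, a receptor of Sema4c and Sema4d, stood at 2306, 2994, 2429 and 2785 in bone marrow, against 1898, 1903, 1939.8 and 1254 in spleen (1.52-fold higher, log2 fold change 0.60 ± 0.14, SE, with 4 arrays a group; adjusted p = 0.0077 in limma). Plxnd1, the receptor of Sema3e and one of the receptors of Sema4a, stood at 2618, 2476, 2344 and 2206 in bone marrow, against 2002, 1853, 1767 and 1320.2 in spleen (0.49 ± 0.12, limma adjusted p = 0.011). In both genes spleen replicate 4 was the lowest spleen array, as in 9 of the 31 members. The share of all genes lowest in that array was not computed, so nothing about the family is read from the count. That array had a platelet marker sum of 2212, against 421 to 493 in the other spleen arrays and 676 to 2627 in bone marrow. The part of platelets was not tested. Without spleen replicate 4 both genes still passed, at log2 fold changes of 0.45 for Plxnb2 and 0.36 for Plxnd1. Plxnb3, a receptor of Sema5a, stood at 201, 230.1, 222 and 195 in bone marrow, against 135, 145, 113 and 123 in spleen (1.65-fold higher, 0.72 ± 0.10, limma adjusted p = 0.00011). Plxnb1, the high-affinity receptor of Sema4d, did not pass (0.12, 95% interval -0.06 to 0.30), although it was slightly higher in bone marrow in 4 of 4 mice. Plxnd1 and Nrp1 are also known from endothelial cells. Of 8 endothelial and stromal markers, Eng (334 in bone marrow, 167 in spleen) and Cxcl12 (111 and 75.8) were higher in bone marrow. Pecam1 (720.0 and 1105), the largest part of the list's sum in both tissues, was lower. The other 5, Cdh5, Tek, Emcn, Col1a1 and Col1a2, did not pass, with log2 fold changes from -0.04 to 0.12. Sums were 1802 to 1921 in bone marrow and 1972 to 2038 in spleen. The part of endothelial cells in these differences was not tested.

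Sema7a and Plxnc1. The largest fall of the family was that of Sema7a, the semaphorin held to the membrane by a lipid anchor, and its plexin receptor Plxnc1 was the only plexin called lower in bone marrow. Sema7a stood at 154, 119.7, 117 and 133 in bone marrow, against 689, 669, 654 and 555 in spleen. It was 4.92-fold lower in bone marrow (log2 fold change -2.30 ± 0.10, SE, with 4 arrays a group; adjusted p = 9.2e-09 in limma). Plxnc1 stood at 1358, 1233, 1354 and 1398 in bone marrow, against 3977, 4155, 4285 and 3716 in spleen. It was 3.02-fold lower (-1.59 ± 0.08, limma adjusted p = 2.0e-08). In both genes the groups lay far apart and each group was narrow. The within-mouse log2 difference ran from -2.48 to -2.06 for Sema7a and from -1.75 to -1.41 for Plxnc1. The other known receptor of Sema7a is an integrin made of the Itga1 and Itgb1 chains. Itgb1 was 1.34-fold higher in bone marrow (0.42 ± 0.11, limma adjusted p = 0.013), although spleen replicate 4, at 1354, lay close to the bone marrow arrays (1391 to 1493), and Itga1 did not pass (0.29, adjusted p = 0.097). B cell markers were lower in bone marrow in 4 of 5 measured (sum 1282 to 1388, against 2959.9 to 3433 in spleen). So were 5 of 6 T and NK cell markers (1039 to 1382, against 2826 to 3112). In spleen most of the 2 sums was Cd22 (379 in bone marrow, 1933 in spleen) and Klrd1 (661 and 1818). Cd3d, Cd3e and Cd3g lay from 70.3 to 164 in bone marrow and from 141 to 206 in spleen. Cd79b and Ncr1 did not pass. The part of these cells in these differences was not tested.

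The RefSeq windows of this ligand and its receptor are shown because both genes were lower in the same arrays. That of Sema7a lies at chr9:57939862-57940161 on the plus strand and that of Plxnc1 at chr10:94944796-94945095 on the minus strand (GRCm38.p6), both written along the gene, with capitals as above.
Sema7a: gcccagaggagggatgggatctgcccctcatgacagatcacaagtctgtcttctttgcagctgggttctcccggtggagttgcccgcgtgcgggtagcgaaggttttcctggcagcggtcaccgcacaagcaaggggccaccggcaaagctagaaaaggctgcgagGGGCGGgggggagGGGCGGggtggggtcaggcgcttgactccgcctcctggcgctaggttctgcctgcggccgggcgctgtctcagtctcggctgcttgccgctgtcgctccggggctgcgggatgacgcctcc
Plxnc1: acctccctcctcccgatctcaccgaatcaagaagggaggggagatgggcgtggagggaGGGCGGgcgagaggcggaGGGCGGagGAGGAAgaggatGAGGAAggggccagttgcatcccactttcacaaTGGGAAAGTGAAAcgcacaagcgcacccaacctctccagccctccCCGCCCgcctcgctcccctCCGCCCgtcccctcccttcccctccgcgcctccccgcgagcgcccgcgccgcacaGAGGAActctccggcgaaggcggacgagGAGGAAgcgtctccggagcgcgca
The Sema7a window held 2 GC boxes, at positions -84 and -71, and none of the other 7 motifs. The Plxnc1 window held 4 PU.1 cores, at -166, -154, -2 and 27, 4 GC boxes, and an RBPJ motif at -121 that overlapped the IRF motif at -118. The IRF motif was found in 3.44% of all windows and in 2 of the family's 37. GC content was 67.3% in the Sema7a window and 69% in the Plxnc1 window. The median was 52.7% over all windows and 56.3% over those of protein-coding genes.

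Class 4 semaphorins. These are membrane proteins with known roles on immune cells, and their changes went both ways: of 6, 2 were higher, 1 was lower and 3 did not pass. Sema4a, a costimulator of T cells on dendritic cells, stood at 1410.2, 1328, 1173 and 1403 in bone marrow, against 575, 540.3, 470.0 and 550.3 in spleen. It was 2.49-fold higher in bone marrow (log2 fold change 1.32 ± 0.09, SE, with 4 arrays a group; adjusted p = 3.6e-07 in limma). The 4 mice gave nearly the same log2 difference, 1.29, 1.30, 1.32 and 1.35. Its receptor Plxnd1 was higher in the same arrays, as given above, whereas Timd2, the receptor described on mouse T cells, was dim in both groups (34.8 in bone marrow, 34.3 in spleen). Sema4c, a ligand of Plxnb2, stood at 119, 104, 119 and 148 in bone marrow, against 84.2, 93.4, 90.2 and 99.7 in spleen (1.33-fold higher, 0.41 ± 0.10, limma adjusted p = 0.015). Sema4f, known mainly from neurons, was the class 4 member that fell: it stood at 74.0, 72.6, 76.6 and 66.5 in bone marrow, against 87.6, 105, 124 and 107 in spleen (1.45-fold lower, -0.54 ± 0.10, limma adjusted p = 0.0021). It was the 1 called member among the dimmest 40% of genes, and Sema4c, at percentile 40.1 of brightness, lay just above that cut.

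Sema4d, which encodes CD100 and signals through B plexins and, on lymphocytes, through Cd72, did not pass. It stood at 3497, 3555, 3347 and 4171 in bone marrow, against 3853, 3548, 3561 and 2823 in spleen, and the groups overlapped. The log2 fold change was 0.08 with a 95% interval from -0.15 to 0.32 (limma adjusted p = 0.74). A second, dimmer probe set of Sema4d gave -0.06 ± 0.09 SE (337 in bone marrow, 351 in spleen). Sema4b was the member nearest to the threshold from outside, lower in bone marrow in 4 of 4 mice but with overlapping groups (-0.28, 95% interval -0.50 to -0.05, limma adjusted p = 0.095). With bone marrow replicate 2 left out it passed (adjusted p = 0.021), and with array weights too (0.043). Sema4g was dim and did not pass (0.07, adjusted p = 0.73).

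**Figure D3:**
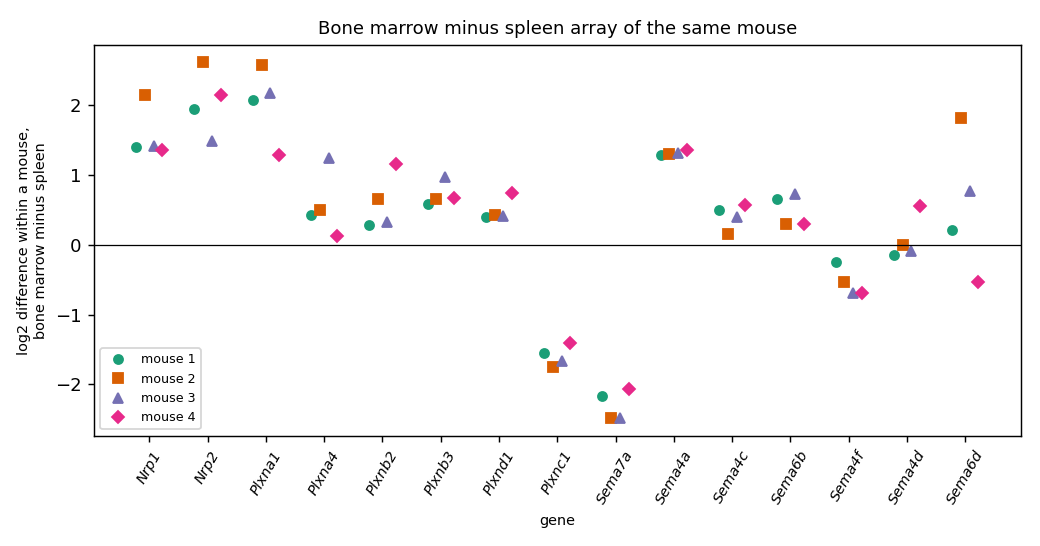
Log2 difference between the bone marrow and the spleen array of the same mouse (y axis) for the 13 called members and for Sema4d and Sema6d (x axis), 1 symbol per mouse. The 4 mice almost coincide in Sema4a and spread from -0.53 to 1.81 in Sema6d.

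Class 5, 6 and 7 semaphorins other than Sema7a. Sema6b, a ligand of Plxna4, stood at 255, 214, 231 and 217 in bone marrow, against 162, 175, 139 and 177 in spleen (1.41-fold higher, log2 fold change 0.49 ± 0.10, SE, with 4 arrays a group; adjusted p = 0.0024 in limma). Its 2 probe sets held the same value on each array and so count as 1 measurement. Sema6d, the ligand of Plxna1, stood at 172, 438, 237 and 109 in bone marrow, against 149, 125, 139 and 157 in spleen. Bone marrow replicate 4 lay below every spleen array and replicate 2 far above, and the gene did not pass (0.56 ± 0.30, 95% interval -0.10 to 1.23, limma adjusted p = 0.28). It passed with bone marrow replicate 4 left out, at 0.88 (limma adjusted p = 0.023), whereas without bone marrow replicate 2 the log2 fold change was 0.21 (adjusted p = 0.64). The SD of log2 intensity was 0.84 among bone marrow arrays and 0.14 among spleen arrays. The remaining 4, Sema5a, Sema5b, Sema6a and Sema6c, all lay among the dimmest 40% of genes, with log2 fold changes from -0.01 to 0.02 and 95% intervals within -0.24 to 0.25.

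Class 3 semaphorins. None of the 7 secreted class 3 semaphorins passed in limma, and none had an unadjusted p under 0.05, against 26.6% of all genes. Sema3a, Sema3c, Sema3d and Sema3e lay among the dimmest 40% of genes, with bone marrow levels from 33.2 to 52.2 and spleen levels from 34.1 to 53.2. Sema3b had a level of 141 in bone marrow, against 135 in spleen, and Sema3g one of 128, against 126. In these 6 genes log2 fold changes ran from -0.06 to 0.06, and their 95% intervals lay within -0.25 to 0.25. Sema3f, a ligand of Nrp2 with Plxna3, was lower in bone marrow in 4 of 4 mice, with overlapping groups: a range of 210.4 to 235 and a level of 219 in bone marrow, against a range of 222 to 300.0 and a level of 252 in spleen (-0.20, 95% interval -0.41 to 0.01, limma adjusted p = 0.20). Background under a dim probe set compresses its fold change toward 0, and whether these genes were expressed at all cannot be read from the intensities.

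Partners at the membrane. Of 17 genes listed as binding partners, 5 were higher and 1 lower in bone marrow (35.3% called, against 18.5% of all genes). Outside the dimmest 40% of genes, 6 of 12 partners were called, against 27.7% of all genes that bright. Trem2, which joins Plxna1 in a receptor complex, stood at 379, 477, 388 and 262 in bone marrow, against 191, 184, 151 and 156 in spleen. It was 2.17-fold higher (log2 fold change 1.12 ± 0.15, SE, with 4 arrays a group, limma adjusted p = 0.00016). From high to low its bone marrow replicates ran 2, 3, 1 and 4, as for Plxna1 and as for the macrophage marker sum. No link to either is read from that order, and the part of macrophages was not tested. Tyrobp, the signalling adaptor of that complex, had a level of 6236 in bone marrow, against 5272 in spleen (0.24 ± 0.07, limma adjusted p = 0.026). That call ended with the mouse as a replicate block (adjusted p = 0.094), and with any of 5 arrays left out: bone marrow replicate 2 (0.059), bone marrow replicate 4 (0.069), spleen replicate 1 (0.062), spleen replicate 2 (0.055) and spleen replicate 4 (0.055). Flt1, a receptor of vascular endothelial growth factors, was 1.88-fold higher (0.91 ± 0.11, limma adjusted p = 3.7e-05). L1cam, an adhesion molecule that binds Nrp1, was 1.85-fold higher (0.88 ± 0.15, limma adjusted p = 0.00096). The member that was lower was Vegfa, the growth factor that Nrp1 binds, at 157 in bone marrow and 203 in spleen (-0.37 ± 0.08, limma adjusted p = 0.0074). Without bone marrow replicate 4, 2 partners were lower.

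Effectors inside the cell. Of 29 measured effectors of plexins (31 listed), 5 were higher and 5 lower in bone marrow (34.5% called, against 18.5% of all genes). Their median log2 fold change was -0.02, against -0.01 over all genes. Outside the dimmest 40% of genes, 10 of 23 effectors were called (43.5%), against 27.7% of all genes that bright. All 3 Mical genes, whose products oxidise actin downstream of plexins, were lower. Mical3 stood at 153, 150.1, 173 and 221 in bone marrow, against 1095, 1168, 1223 and 1042 in spleen, a 6.56-fold fall (-2.71 ± 0.12 (SE), 4 arrays a group, limma adjusted p = 5.8e-09), and with the gene's probe sets averaged its log2 fold change was -1.82. Mical1 was 1.90-fold lower (-0.93 ± 0.10, limma adjusted p = 2.4e-05) and Mical2 1.49-fold lower (-0.57 ± 0.09, limma adjusted p = 0.00035). Small GTPases of the R-Ras group changed in both directions. Rras2 stood at 355, 330.1, 338 and 291 in bone marrow, against 1545, 1659, 1842 and 1730.4 in spleen (5.16-fold lower, -2.37 ± 0.09, limma adjusted p = 1.7e-09), whereas Mras was 1.95-fold higher (0.96 ± 0.13, limma adjusted p = 1.0e-04). Rras was 1.34-fold higher (0.42 ± 0.12, limma adjusted p = 0.029). It no longer passed when any of 4 arrays was left out, namely bone marrow replicates 2 (adjusted p = 0.058) and 4 (0.070) and spleen replicates 2 (0.095) and 3 (0.079). Rnd3, a small GTPase, was 1.57-fold lower (-0.65 ± 0.15, limma adjusted p = 0.0072). The count of 5 higher effectors was 3 without bone marrow replicate 2 or 4, and 3 without spleen replicate 3 or 4.

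Proteases that process the family. Of 7 proteases, limma called 4 higher and none lower in bone marrow (57.1% called, against 18.5% of all genes). At an unadjusted p under 0.05 in limma the counts were 5 and 0 (12.8% and 13.9% of all genes). Outside the dimmest 40% of genes, 4 of 6 proteases were called, against 27.7% of all genes that bright. Mmp14, a membrane metalloprotease that can shed Sema4d, stood at 503, 729.6, 637 and 635 in bone marrow, against 237, 191, 221 and 253 in spleen. It was 2.77-fold higher (log2 fold change 1.47 ± 0.12, SE, with 4 arrays a group; adjusted p = 1.5e-06 in limma). Furin, which cleaves class 3 semaphorins, was 1.92-fold higher (0.94 ± 0.12, limma adjusted p = 8.0e-05). Adam10 and Adam17, proteases that shed membrane proteins, were 1.37-fold and 1.27-fold higher (0.46 ± 0.08 and 0.34 ± 0.08, limma adjusted p = 0.00095 and 0.0060). Macrophage and monocyte markers, given above, rose in these arrays too, and their part in these differences was not tested.

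**Figure D4:**
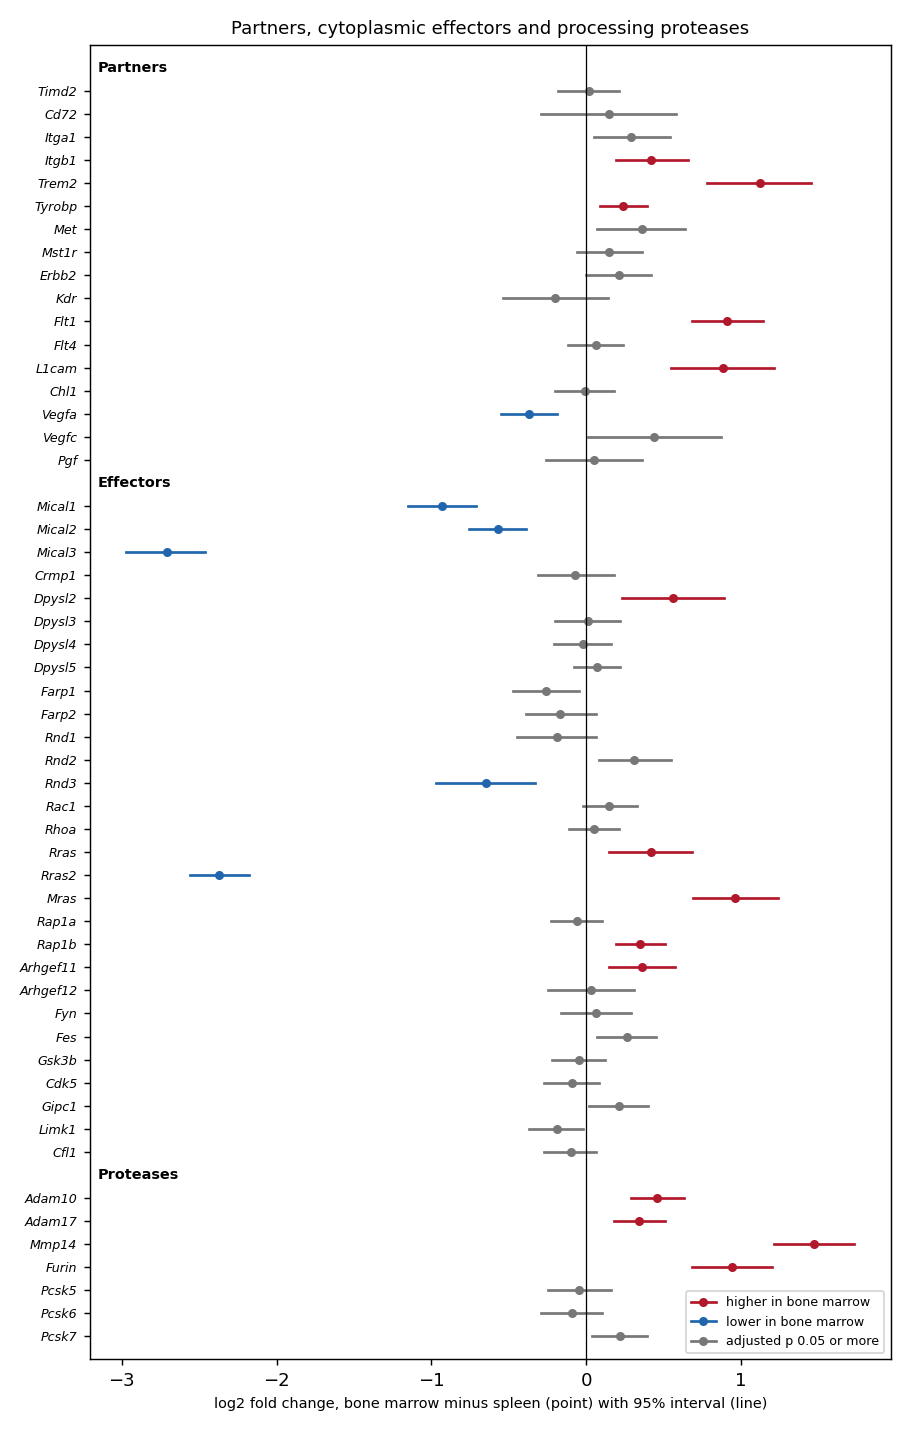
Log2 fold change, bone marrow minus spleen (x axis; point, with the 95% interval as a line), of the 17 partners, 29 effectors and 7 proteases down the y axis. Mical3 and Rras2 lie farthest to the left, at -2.71 and -2.37, and Mmp14 and Trem2 farthest to the right, at 1.47 and 1.12.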

How the data were processed

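Expression was measured on 8 arrays, 4 per tissue. For each probe set the authors deposited a linear intensity, computed in Affymetrix Expression Console 1.4 (submitters' processing notes). Background correction, normalization and summarization: not given in the sources used here. Among 35556 probe sets, 21789 carried a single gene symbol in the platform's annotation, and the brightest per gene gave 19938 genes. All 31 members matched RefSeq symbols.

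Intensities were taken to log2 and fitted in R 4.3.3 by lmFit and eBayes of limma 3.58.1 (bone marrow minus spleen), with Benjamini-Hochberg adjustment over all genes and a threshold of 0.05. The fit was tested on simulated data. Arrays have no read depth; their number limits the precision. Equal replicate numbers mark the same mouse, per the animal codes in the labels. Deviations from the group means of the arrays of a mouse correlated across genes at 0.096, -0.088, -0.178 and -0.054; the main fit had no block, and blocking on the mouse was an alternative.

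Members, partner, effector, protease and marker lists were chosen with earlier results of these data known. Text names all members and up to 6 called genes of each partner, effector or protease list with the largest change; Itga1 and Timd2 were named as receptors of members, and Rras after its values were seen. Further alternatives were quantile normalization, median centring, a filter on the dimmest 40%, averaging of probe sets, an offset of 32, an intensity trend, array weights and leaving out each array.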

Additional observations from a re-analysis of the deposited data

Results flagged for a closer look

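In 94 groups of 4 arrays (31 members and 16 named partner genes, each in both tissues), 5 had 1 array whose gap to the nearest other array, on the log2 scale, exceeded Dixon's critical value as a share of the group's range; chance gives about 1 in 20 groups. Plxna3 stood at 168 in bone marrow replicate 3, with the other bone marrow arrays between 131 and 136. Sema6a stood at 67.7 in bone marrow replicate 2, below 89.4 to 93.6 in the others. Vegfa stood at 176 in bone marrow replicate 1, above 151 to 153. Plxnb2 stood at 1254 in spleen replicate 4, below 1898 to 1939.8 in the other spleen arrays. Itgb1 stood at 1354 in the same spleen array, above 966 to 1003.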

How the results depend on the processing

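All 13 called members kept their direction and passed the threshold under each of the 16 alternatives in which they were tested; Sema4f was not tested without the dimmest genes. Of 18 members that did not pass, 16 did not pass under any, and Sema4b and Sema6d passed under those named above. Higher members numbered 10 to 11 and lower members 2 to 4, and over all genes 3144 to 3868 passed. With the mouse as a replicate block, the Nrp1 log2 fold change was 1.58, and of the named genes Tyrobp alone lost its call (0.24, adjusted p = 0.094). Leaving out 1 array gave 3 to 6 higher effectors, 4 to 6 higher partners and 1 to 2 lower partners. The cause of these shifts was not tested. The median log2 fold change of all genes stayed between -0.02 and 0.01. Without background values, low intensities limit what can be read from dim members.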
